A study of Komagataella phaffii with 6 samples.

Results

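MXR1, MIT1 and TRM1 (also called PRM1) encode the transcription activators that the methylotrophic yeast Komagataella phaffii uses to switch on its methanol genes. They were taken by locus tag, as PAS_chr4_0487, PAS_chr3_0836 and PAS_chr4_0203, and are 3 of the 5040 genes in the deposited count table. Only locus tags stand in the table and in the RefSeq gene table used beside it, so the gene names rest on published K. phaffii naming and were not checked against sequence. Wild-type cells of strain X-33 had been grown for 40 h on glycerol and then spent 18 h in methanol medium, either without a nitrogen source (3 libraries) or with ammonium sulfate (3 libraries). Strain, genotype, carbon sources and times were shared by both groups. The labels do not say whether the 3 replicates of a group were separate cultures, so the p-values measure only the spread between these libraries, which may be technical.

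Methanol genes of K. phaffii are shut off on glucose and, for the most part, on glycerol, and are induced to very high levels on methanol. Mxr1 is a zinc finger protein related to Adr1 of Saccharomyces cerevisiae, and is needed for release from repression and for induction of the alcohol oxidase gene AOX1. Mit1 and Trm1 belong to the fungal zinc cluster family, and both are needed for full induction of AOX1 by methanol. The enzymes encoded by the induced genes oxidise methanol to formaldehyde in peroxisomes, burn part of it to carbon dioxide and fix the rest into sugar phosphates.

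The libraries were read from the 3' end of transcripts and were shallow. Those without nitrogen held 302837, 395803 and 127303 counts, and those with nitrogen held 435003, 302395 and 320915. The methanol genes stood near the top of the table, with no group on another carbon source analysed here to set them against: over the 6 libraries DAS2, a dihydroxyacetone synthase gene, ranked 1 and AOX1 ranked 5 by mean CPM (counts divided by a library's total over the tested genes after TMM scaling, in that unit's usual form) among the 3330 genes with enough counts to be tested. All 3 activator genes passed that filter. CPM are relative to the other transcripts of a library, so a change in the amount of RNA per cell would not be seen in them.

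None of the 3 activator genes passed the test for a difference between cells without and with nitrogen. The levels kept a fixed order in every library, with MIT1 far above TRM1 and TRM1 above MXR1. The summed enzyme genes that the activators serve had a lower mean without nitrogen, with groups that overlapped on the CPM scale (62835 to 77998 CPM without nitrogen, 74676 to 88661 CPM with nitrogen). The counts of MXR1 and MIT1 per enzyme count were higher in every library without nitrogen than in any library with it. A shift of that kind was common in the table, at 21.3% of 3321 tested genes outside these enzyme genes.

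MXR1 is annotated on the minus strand of chromosome 4 (chr4:956789-960256, ASM2700v1), as 1 coding exon of 3468 bp. Its counts in the libraries without nitrogen were 44, 47 and 24, against 51, 42 and 45 in those with nitrogen. These counts corresponded to 153, 119 and 191 CPM without nitrogen and to 116, 145 and 146 CPM with nitrogen. The highest value belonged to the shallow replicate 3 without nitrogen, the second lowest to replicate 2 of the same group, and the groups overlapped. The mean was 154 ± 36.1 CPM without nitrogen and 136 ± 17.0 CPM with nitrogen (SD, n = 3 each). The log2 fold change, without minus with nitrogen, was 0.12 ± 0.25 (SE; edgeR quasi-likelihood test, adjusted p = 0.882). Its 95% interval reached from a ratio of 0.781 to one of 1.52, so the fit settled neither a rise nor a fall within these bounds. Without the shallow replicate 3 the log2 fold change of MXR1 was 0.0041, and without replicate 2 without nitrogen it was 0.32, neither of which passed.

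MIT1 lies on the plus strand of chromosome 3 (chr3:1617105-1619771), also as 1 coding exon, of 2667 bp. It was counted 749, 950 and 312 times in the libraries without nitrogen, against 919, 640 and 889 times in those with nitrogen. On the CPM scale these were 2608, 2400 and 2482 without nitrogen, and 2090, 2205 and 2887 with nitrogen. The 3 libraries without nitrogen lay close together and inside the range of those with nitrogen, where replicate 3 stood above the other two. MIT1 averaged 2497 ± 105 CPM without nitrogen and 2394 ± 431 CPM with nitrogen (SD, n = 3 each). The fit gave MIT1 a log2 fold change of 0.06 ± 0.12 (SE; adjusted p = 0.880 by edgeR), with a 95% interval for the ratio of 0.884 to 1.23. MIT1 had the narrowest interval of the 3 activators, in a fit whose spread came mostly from the trend over all genes. The sign for MIT1 turned when replicate 1 or replicate 2 with nitrogen was left out (log2 fold changes of -0.029 and -0.0045).

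The spread of MIT1 between replicates differed between the groups. As a chi-square per degree of freedom, which is near 1 when replicates differ only by counting error, it was 0.196 without nitrogen and 20.8 with nitrogen. For MXR1 the same index was 1.75 without nitrogen and 0.491 with nitrogen. For TRM1 it was 1.03 without nitrogen and 0.520 with nitrogen. The index grows with the count at an equal relative spread, so its values cannot be compared between genes of unlike level. As SD in percent of the mean CPM, the spread of MIT1 was 4.19% without nitrogen and 18.0% with nitrogen. For MXR1 it was 23.4% without nitrogen and 12.5% with nitrogen, and for TRM1 9.41% and 4.54%. Each value rests on 3 libraries, and whether the spreads differ was not tested. The library with the highest MIT1 value, replicate 3 with nitrogen, also had the highest summed level of the 9 methanol enzyme genes listed further on. That sum was 88661 CPM, against 74676 and 84528 CPM in replicates 1 and 2 with nitrogen. Replicate 2 with nitrogen had a higher enzyme sum than every library without nitrogen, but less MIT1 (2205 CPM, against 2400 to 2608 CPM). A link between MIT1 and the enzyme sum was not tested.

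TRM1 is on the minus strand of chromosome 4 (chr4:414815-417784), with 1 coding exon of 2970 bp. It had 67, 108 and 35 counts in the libraries without nitrogen and 137, 89 and 88 in those with nitrogen. The corresponding values were 233, 273 and 278 CPM without nitrogen, and 312, 307 and 286 CPM with nitrogen. Every library without nitrogen was below every library with nitrogen on this scale, but 278 and 286 CPM leave a narrow gap. On CPM of the whole library totals, with no TMM scaling, the order of the closest pair turned, at 274.9 for the third library without nitrogen, against 274.2 for the third with nitrogen. TRM1 averaged 262 ± 24.6 CPM without nitrogen and 301 ± 13.7 CPM with nitrogen (SD, n = 3 each). The log2 fold change of -0.22 ± 0.18 (SE) did not pass (edgeR adjusted p = 0.651), and its 95% interval ran from a ratio of 0.670 to one of 1.11. Groups that do not overlap were found for 20.2% of all tested genes, and for 9.91% in this direction.

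**Figure D1:**
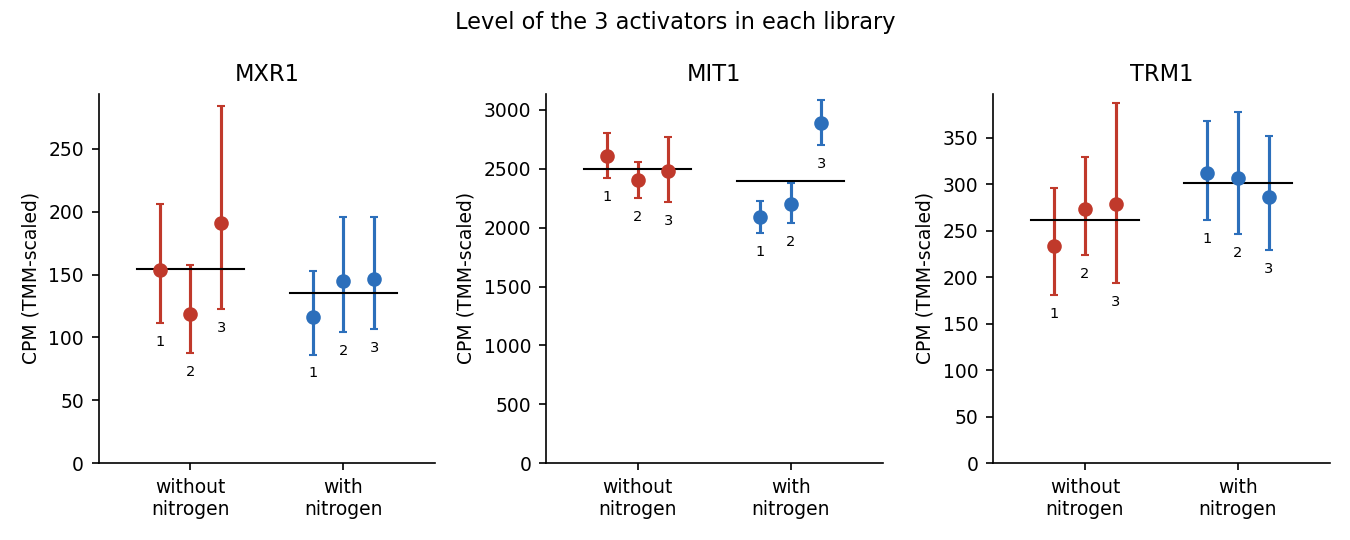
Level of MXR1, MIT1 and TRM1 in each library, in TMM-scaled CPM from 0, without nitrogen at the left and with nitrogen at the right of each panel. Points are libraries with replicate numbers, bars are exact 95% Clopper-Pearson intervals that cover counting error only, and black lines are group means. The groups overlap for MXR1 and MIT1, and for TRM1 they are separated by the gap between 278 and 286 CPM.

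With edgeR, 0 of the 3 activator genes were called at an adjusted p under 0.05, against 6.34% of the 3330 genes tested. At an unadjusted p under 0.05, which 16.4% of the tested genes had, the count of activators was also 0, as it was with DESeq2 and with limma-voom. For single genes nearly all of the spread used by edgeR came from the trend over all genes (prior degrees of freedom 985), so the standard errors say little about the libraries of 1 gene. With exact permutation tests on log2 CPM (two-sided), p was 0.4 for MXR1, 0.7 for MIT1 and 0.1 for TRM1, and 0.1 is the smallest p that 3 libraries against 3 can give.

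**Figure D2:**
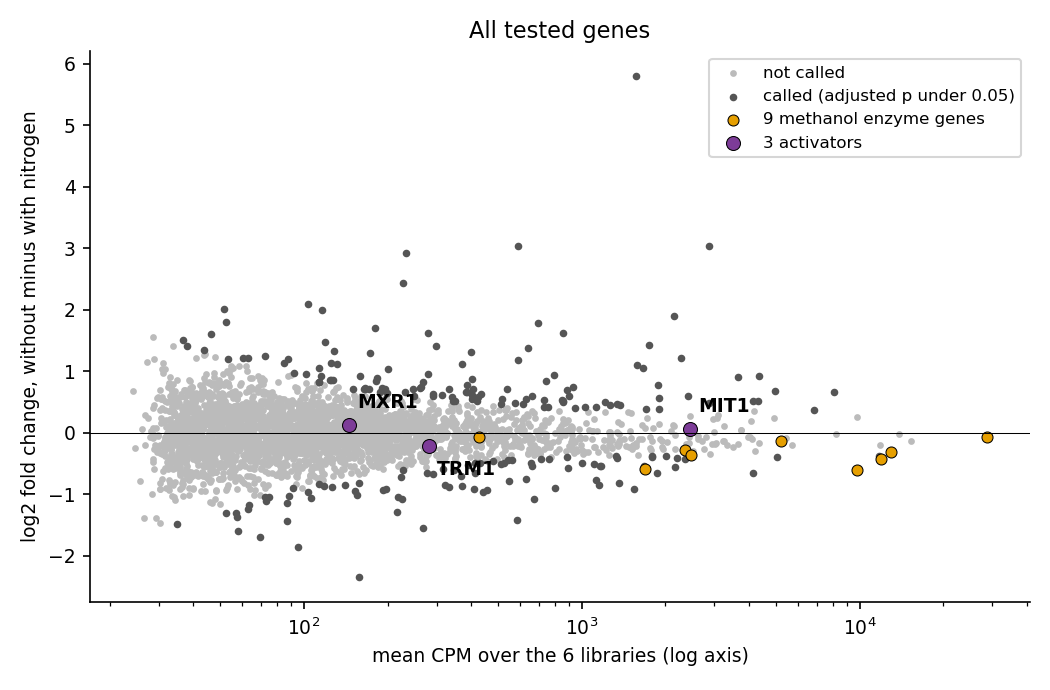
Log2 fold change, without minus with nitrogen, against mean CPM over the 6 libraries (log axis) for the 3330 tested genes. Dark points are the 211 called genes, purple points the 3 activators and orange points the 9 methanol enzyme genes. The activators lie near 0, at 0.12 for MXR1, 0.06 for MIT1 and -0.22 for TRM1.

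The activators differed far more from each other than between the media. By mean CPM over the 6 libraries, 98.3% of the tested genes lay below MIT1, 80.6% below TRM1 and 62.9% below MXR1. Per kb of coding length, MIT1 stood at 936 CPM per kb without nitrogen and 898 with nitrogen, and 93.1% of tested genes lay below it. TRM1 stood at 88.1 CPM per kb without nitrogen and 101.4 with nitrogen, above 54.7% of genes. MXR1 stood at 44.5 CPM per kb without nitrogen and 39.1 with nitrogen, above 25.6% of genes. Since 3' end libraries give about the same number of reads for a short and a long transcript, and reads lying wholly in an untranslated region are not in these counts, neither scale gives the molar ratio of the transcripts. The order of the genes was the same on both.

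Within a library, MIT1 had 13.0 to 20.2 times the count of MXR1, or 16.9 to 26.3 times per kb. It had 6.71 to 11.2 times the count of TRM1, or 7.47 to 12.4 times per kb. TRM1 had 1.46 to 2.69 times the count of MXR1, or 1.70 to 3.14 times per kb. The exact 95% counting interval of the ratio lay above 1 in 6 of 6 libraries for MIT1 to MXR1 and for MIT1 to TRM1, and in 5 of 6 for TRM1 to MXR1. The exception was the shallow replicate 3 without nitrogen, where 35 counts of TRM1 against 24 of MXR1 left an interval from 0.843 to 2.56. MIT1 therefore held most of the reads of the trio, with 85.7% ± 1.51 of their summed count without nitrogen and 84.3% ± 2.29 with nitrogen (SD, n = 3 each).

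The balance between the activators was compared as the log2 ratio of their counts within each library, which needs no library scaling. For MIT1 to MXR1 the libraries without nitrogen gave 4.07, 4.32 and 3.67, and those with nitrogen gave 4.16, 3.91 and 4.29. The groups overlapped widely, with means of 4.02 ± 0.33 without nitrogen and 4.12 ± 0.19 with nitrogen (SD, n = 3 each) and a difference of -0.10 (exact permutation test, two-sided, p = 0.7). That difference changed sign without replicate 3 without nitrogen (0.078).

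For TRM1 to MXR1 the log2 ratios were 0.60, 1.19 and 0.54 without nitrogen, against 1.42, 1.07 and 0.96 with nitrogen. Replicate 2 without nitrogen fell inside the range of the libraries with nitrogen, and the other two were below it. The means were 0.78 ± 0.36 without nitrogen and 1.15 ± 0.24 with nitrogen (SD, n = 3 each), a difference of -0.37 (exact permutation p = 0.3). It was -0.58 without replicate 2 without nitrogen (exact permutation p = 0.1, the smallest possible), and -0.24 without replicate 1 with nitrogen (exact permutation p = 0.4).

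The third ratio, MIT1 to TRM1, was 3.47, 3.13 and 3.14 without nitrogen, against 2.74, 2.84 and 3.33 with nitrogen. Here replicate 3 with nitrogen, the library with the most MIT1, lay within the values found without nitrogen. Means of 3.25 ± 0.20 without nitrogen and 2.97 ± 0.31 with nitrogen (SD, n = 3 each) differed by 0.28 (exact permutation p = 0.3). Without replicate 3 with nitrogen the difference was 0.46 (exact permutation p = 0.1, the smallest possible), and it was 0.16 without replicate 1 of either group. Over these 3 ratios, Benjamini-Hochberg adjustment gave p between 0.45 and 0.7 (exact permutation tests).

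**Figure D3:**
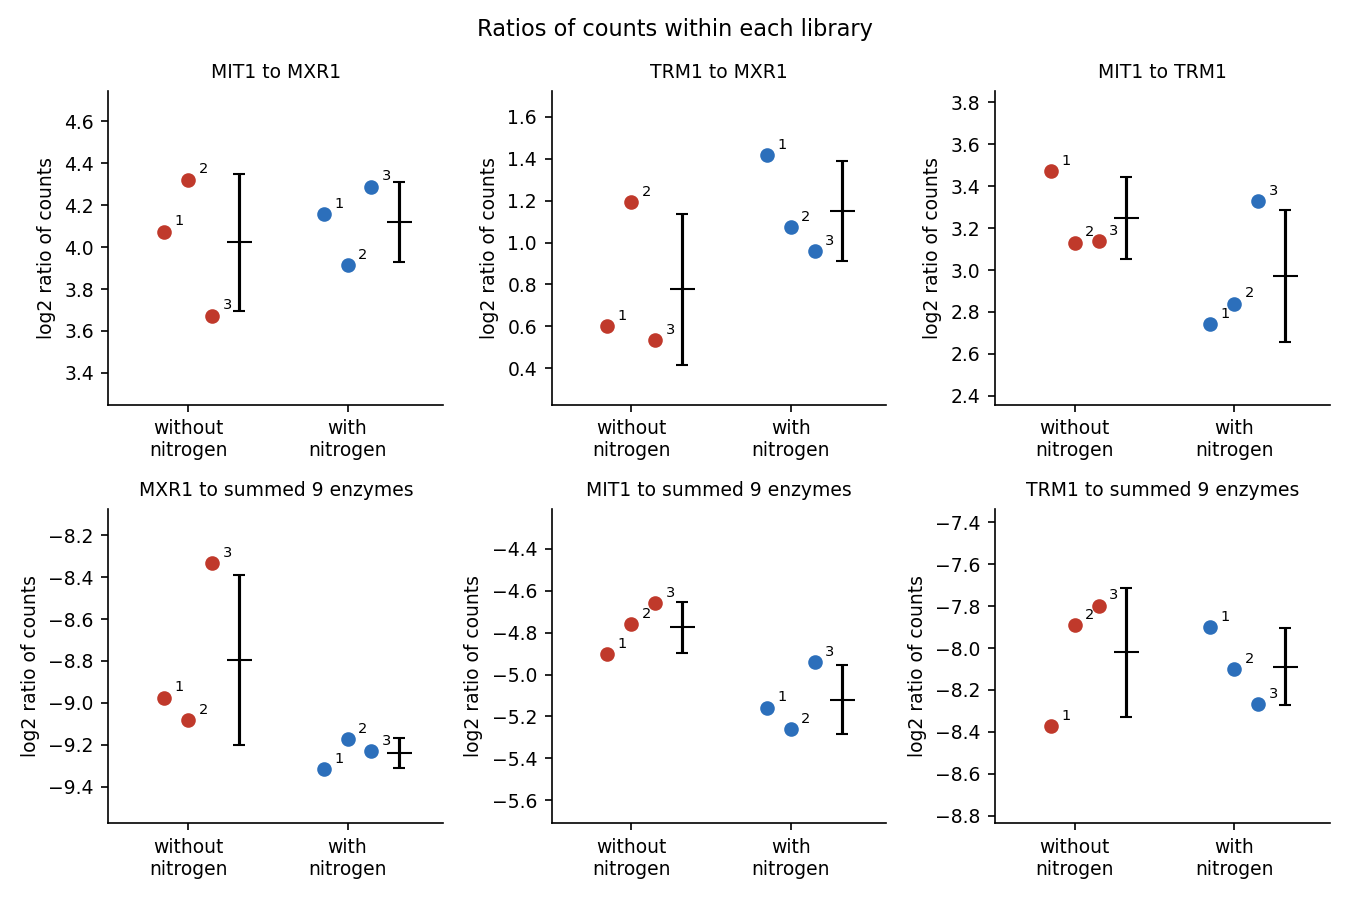
Log2 ratio of counts within each library, without nitrogen at the left and with nitrogen at the right of each panel, all panels spanning the same height. Points are libraries with replicate numbers, and the black marks are group means with SD. In the upper row the groups overlap in all 3 ratios between activators; in the lower row they do not overlap for MXR1 and MIT1 to the summed enzyme genes.

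The enzyme genes of the pathway were read beside the activators from a list of 9. Of these, 3 fell without nitrogen and 0 rose at an edgeR adjusted p under 0.05, against 2.67% of all tested genes lower and 3.66% higher, and 6 did not pass. At an unadjusted p under 0.05, 6 of the 9 were lower, against 8.29% of all tested genes. The list's median log2 fold change was -0.31, and that of all tested genes was -9.27e-05. The list was put together with earlier results of these data known, so its direction is no independent evidence.

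The 3 enzyme genes that fell were FDH1, AOX2 and AOX1. FDH1 (PAS_chr3_0932), the formate dehydrogenase of the last oxidation step, had 7769 ± 771 CPM without nitrogen and 11795 ± 1424 CPM with nitrogen, a log2 fold change of -0.60 ± 0.12. AOX2 (PAS_chr4_0152), the minor alcohol oxidase, had -0.59 ± 0.13. AOX1 (PAS_chr4_0821), the major one and the best studied target of the activators, had -0.43 ± 0.12, at 10199 ± 2614 CPM without nitrogen and 13752 ± 1141 CPM with nitrogen (SD, n = 3 each; SE for fold changes). The AOX1 groups overlapped, with 13062 CPM in replicate 1 without nitrogen against 12443 CPM in replicate 1 with nitrogen. The call for AOX1 was lost under 5 of 15 alternatives, with adjusted p up to 0.358 (DESeq2, edgeR being the main test). Reads of AOX1 and AOX2, and of DAS1 and DAS2, may have been split between near-identical copies by the authors' counting, so their single values are uncertain.

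The 6 enzyme genes that did not pass had log2 fold changes between -0.36 and -0.07. They were DAS1 and DAS2 at -0.31 and -0.07, the dihydroxyacetone kinase gene DAK2 at -0.28, the formaldehyde dehydrogenase gene FLD1 at -0.36, the S-formylglutathione hydrolase gene FGH1 at -0.07 and the catalase gene CTA1 at -0.13. FLD1 (edgeR adjusted p = 0.0523) passed under 7 of 15 alternatives and DAS1 under 3 of 15, and the number of enzyme genes called lower ran from 2 to 5 over the alternatives. The intervals of MXR1, MIT1 and TRM1 overlapped with those of several of these enzyme genes.

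**Figure D4:**
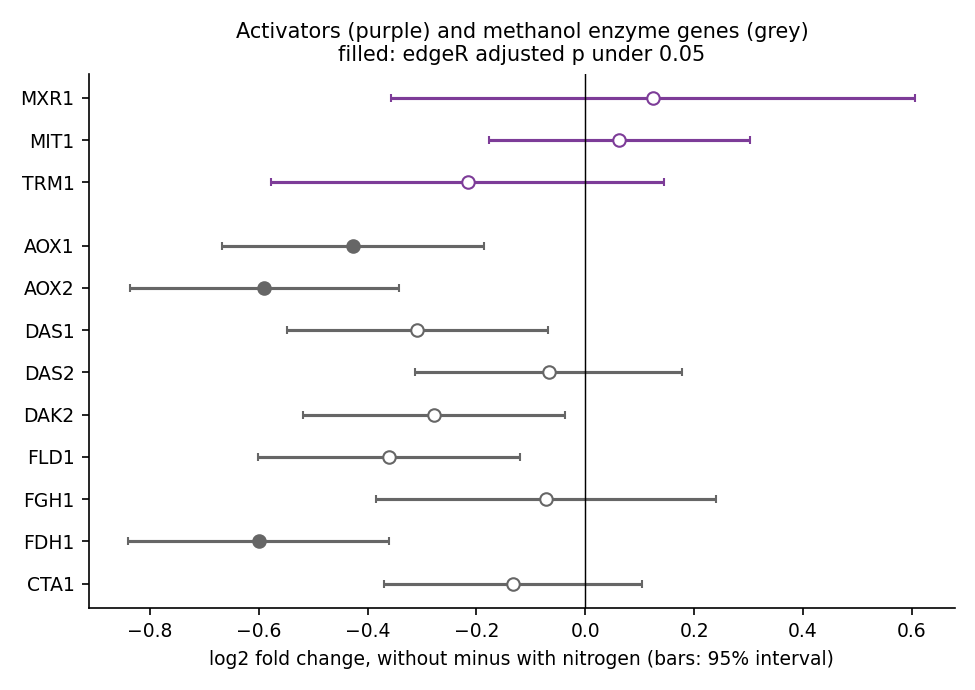
Log2 fold change, without minus with nitrogen, with its 95% interval from the edgeR fit, for the 3 activators (purple, top) and the 9 methanol enzyme genes (grey). Filled points have an adjusted p under 0.05. The intervals of all 3 activators include 0, and the filled points AOX1, AOX2 and FDH1 lie between -0.60 and -0.43.

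Each activator was then set against the summed count of the 9 enzyme genes in the same library. The enzymes together had 68636 ± 8185 CPM without nitrogen and 82622 ± 7185 CPM with nitrogen (SD, n = 3 each). The 3 activators together had 2913 ± 107 CPM without nitrogen and 2831 ± 428 CPM with nitrogen.

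MIT1 came to 3.34%, 3.69% and 3.95% of the enzyme count in the libraries without nitrogen, against 2.80%, 2.61% and 3.26% in those with nitrogen. All 3 libraries without nitrogen were above all 3 with nitrogen, with 3.34% and 3.26% as the closest pair. The same held for 21.3% of 3321 tested genes outside the list. Because the mean summed enzyme level was lower without nitrogen, a gene with no change of its own would tend to a higher ratio. On the log2 scale the difference was 0.35 (exact permutation p = 0.1, the smallest possible).

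MXR1 came to 0.196%, 0.182% and 0.304% of the enzyme count without nitrogen, and to 0.155%, 0.171% and 0.165% with nitrogen. The groups did not overlap here either, with a log2 difference of 0.44 (exact permutation p = 0.1), and the highest value was that of the shallow replicate 3. The share of 21.3% of genes and the lower enzyme level apply to this ratio too. Without this library the log2 difference of MXR1 to the enzymes was 0.21.

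TRM1 came to 0.299%, 0.419% and 0.443% of the enzyme count without nitrogen, against 0.417%, 0.363% and 0.322% with nitrogen. These groups overlapped, and the log2 difference was 0.07 (exact permutation p = 0.8), with a sign that turned when replicate 3 of either group was left out (-0.043 without the one lacking nitrogen, -0.022 without the one with nitrogen). After Benjamini-Hochberg adjustment over the 3 ratios to the enzymes, p was 0.15, 0.15 and 0.8 for MXR1, MIT1 and TRM1 (exact permutation tests).

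A higher ratio to the enzymes was frequent in the whole table. Of 3321 tested genes outside the list, 21.3% had ratios to the summed enzyme count that were higher in every library without nitrogen than in any with it, and 23.9% did not overlap in either direction. The median difference over these genes was 0.27 on the log2 scale. The differences of 0.44 for MXR1 and 0.35 for MIT1 were above those of 67.9% and 57.7% of the genes, and that of TRM1 was above 29.2%. Whether the activators differ from these genes was not tested.

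MIT1 differs from the other activator genes in its position, because it lies among enzyme genes of the pathway. It stands between DAS2, which ends 1785 bp before the MIT1 coding sequence on the same strand, and PAS_chr3_0837, which points toward it from 197 bp beyond its end. Neighbours were taken from the deposited count table, so a gene absent from it would not be seen. The stretch of chromosome 3 from DAS1 to DAK2 measures 19.8 kb and holds 9 genes of that table, of which 7 were tested. Of these 7, edgeR called 0 at an adjusted p under 0.05, and 3 were lower at an unadjusted p under 0.05 (DAS1, DAK2 and PAS_chr3_0839), against 8.29% of all tested genes. The stretch was chosen after the values of its genes were seen, and DAS1 and DAK2 are also in the list of enzyme genes, so nothing is read from this count. DESeq2 called 0 and limma-voom 1.

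Levels along this stretch ranged widely from gene to gene. DAS2 had 28050 ± 2632 CPM without nitrogen and 29400 ± 2138 CPM with nitrogen (SD, n = 3 each, here and below). The short convergent gene PAS_chr3_0837 (315 bp) had 542 ± 118 CPM without nitrogen and 535 ± 83.9 CPM with nitrogen. Per kb of coding length PAS_chr3_0837 had 1720 CPM without nitrogen and 1698 with nitrogen, above MIT1 at 936 and 898. PAS_chr3_0838, the next gene, had 49.6 ± 5.38 CPM without nitrogen and 50.4 ± 16.1 CPM with nitrogen. Neither the deposited table nor the RefSeq gene table gives a product for these last genes.

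**Figure D5:**
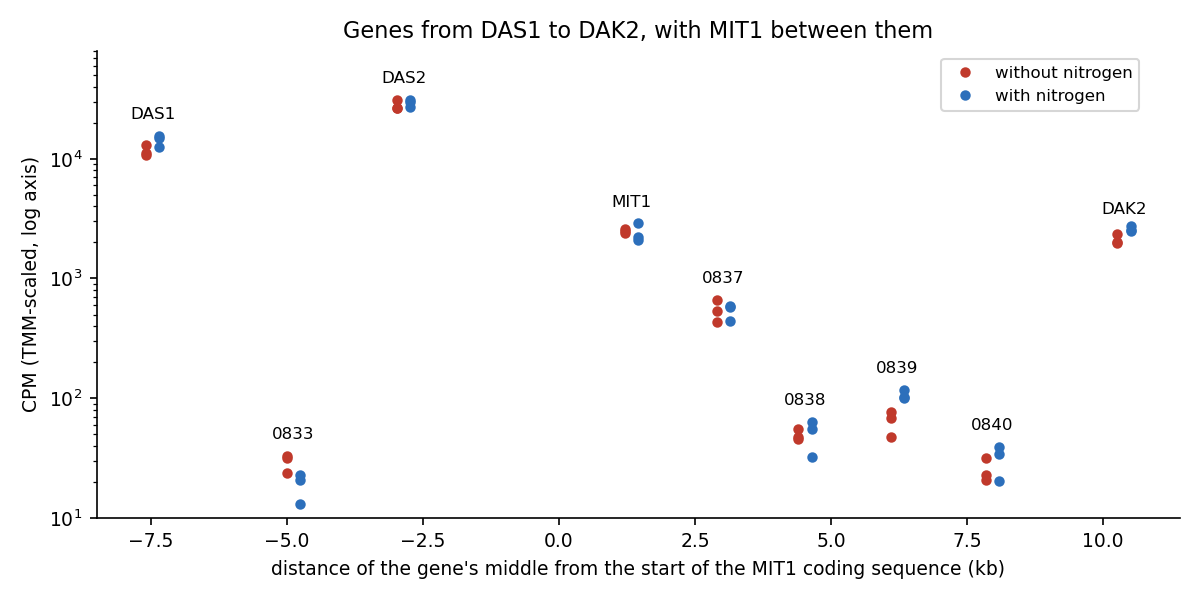
CPM (TMM-scaled, log axis) of the 9 counted genes from DAS1 to DAK2. The horizontal axis is the distance of each gene's middle from the start of the MIT1 coding sequence in kb. Each point is a library, those without nitrogen drawn left of those with nitrogen, and genes with no name carry the end of their locus tag. On this CPM scale DAS2 is highest, MIT1 and DAK2 lie at similar levels near 2500 CPM, and the unnamed genes lie below.

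By mean CPM, the immediate neighbours of MXR1 lay below it, and those of TRM1 lay below TRM1. Per kb of coding length this held only for the downstream neighbours. PAS_chr4_0488, upstream of MXR1, had 66.3 CPM per kb without nitrogen and 63.4 with nitrogen, against 44.5 and 39.1 for MXR1. PAS_chr4_0204, upstream of TRM1, had 187 and 189 CPM per kb, against 88.1 and 101.4 for TRM1. MXR1 is followed by the convergent PAS_chr4_0486 at a distance of 77 bp, which had 49.3 ± 16.5 CPM without nitrogen and 40.8 ± 4.10 CPM with nitrogen (SD, n = 3 each). TRM1 is followed by the convergent PAS_chr4_0202 at 125 bp, with 66.2, 101.1 and 199 CPM in the libraries without nitrogen and 97.8, 86.1 and 84.4 CPM in those with nitrogen. Upstream of MXR1, at 669 bp, PAS_chr4_0488 had 56.7 ± 16.1 CPM without nitrogen and 54.2 ± 18.3 CPM with nitrogen. Upstream of TRM1, at 611 bp, PAS_chr4_0204 had 178 ± 46.0 CPM without nitrogen and 180 ± 32.4 CPM with nitrogen (SD, n = 3 each), a level above that of MXR1. None of these 4 genes passed the edgeR test (adjusted p from 0.741 to 0.957). Coding sequences did not overlap, but whether strand was used in the counting is not given, so reads of a convergent neighbour that reach into a coding sequence could have been counted there.

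The genes most like each activator over the 6 libraries were sought by Pearson's r of log2 CPM among 2668 genes with a mean of at least 50 CPM. For MXR1 they were PAS_chr2-2_0351 (r = 0.993) and PAS_chr3_0166 (r = 0.971). MIT1 was most like PAS_chr3_0808 (r = 0.971) and PAS_chr1-1_0111 (r = 0.958), both of which were also highest in replicate 3 with nitrogen, at 1107 and 711 CPM. TRM1 was most like PAS_chr2-1_0041 (r = 0.989) and PAS_chr3_0418 (r = 0.988). An r over 0.9 was reached by 28 genes for MXR1, 10 for MIT1 and 24 for TRM1, of 2668 genes compared for each. With 6 libraries and so many genes, such values can also arise by chance, and the number to expect was not worked out. The correlations are descriptions over the same 6 libraries, in which all genes share the differences in depth and the scaling factors. No activator was among the closest genes of another.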

How the data were processed

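Per the labels' protocols, 300 ng of total RNA went into each library, made with a forward 3' end kit. The deposited values are raw read counts per gene, which the authors left unnormalized. The submitters' processing notes name Trimmomatic, HISAT2 and featureCounts; the sources used here give no settings for them. All 5040 gene lengths in the file are multiples of 3, so counts cover coding sequence. All 5040 locus tags matched RefSeq ASM2700v1, which pairs 0 of them with a symbol.

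The counts were fitted in R 4.3.3 with edgeR 4.0.16: filterByExpr (minimum count 10; 3330 genes), TMM scaling of the totals over these genes (97.5% to 97.9% of each library's counts), quasi-likelihood F-test on group, two-sided, Benjamini-Hochberg over all tested genes, threshold 0.05. The SE is the size of the log2 fold change divided by the square root of F, and the 95% interval uses the fit's degrees of freedom. Ratios within a library used a pseudocount of 0.5 and exact permutation tests. Intervals on counts are exact Clopper-Pearson and cover counting error only. Alternatives used limma 3.58.1 and DESeq2 1.42.0.

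The activators, the 9 enzyme genes and the tests were chosen with earlier results of these data known. The genes named were the activators, that list, the nearest gene on each side of an activator, and the 2 most alike per activator; the other genes from DAS1 to DAK2 were added after their values were seen. Planned lists of zinc finger proteins and of repressors were not analysed here, because no protein sequence or symbol was at hand. For the same reason no sequence is printed.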

Additional observations from a re-analysis of the deposited data

How the results depend on the processing

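None of the activators was called under any of 15 alternatives. MXR1 kept a positive log2 fold change (0.0041 to 0.32) and TRM1 a negative one (-0.27 to -0.14). With a library left out, MIT1 ran from -0.029 to 0.21, the log2 difference of MIT1 to MXR1 from -0.25 to 0.078 and that of TRM1 to the enzymes from -0.043 to 0.24, so their signs were not stable; the cause was not tested. The difference of TRM1 to MXR1 stayed below 0 (-0.58 to -0.24) and that of MIT1 to TRM1 above it (0.16 to 0.46). The differences of MXR1 and MIT1 to the enzymes stayed above 0 (0.21 to 0.59 and 0.28 to 0.44). With all 6 libraries, 76.9% of the 3321 tested genes outside the enzyme list also had a difference above 0. Of all tested genes, 211 were called, 119 with DESeq2, 134 with libraries thinned to the smallest total and 129 to 183 with a library left out. With the replicate block 168 were called, 164 of them among the 211. Same-numbered libraries deviated with correlations of -0.067, -0.0321 and -0.0579, and 0 of 6 libraries correlated best with their own number. No pairing by number was visible, but libraries this shallow cannot exclude one, and the labels do not state any. With the replicate block the log2 fold changes were 0.16 for MXR1, 0.08 for MIT1 and -0.22 for TRM1. Depth limits MXR1 and TRM1 most, with 24 and 35 counts in the shallowest library.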
